A study of Mus musculus with 6 samples.

Results

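The insulin-like growth factor (IGF) genes described here are the 2 ligands *Igf1* and *Igf2*, their receptors *Igf1r* and *Igf2r*, and the binding proteins *Igfbp2* to *Igfbp7*. They were selected by symbol, with earlier results of these data known. All 10 were found among the 23420 genes measured by RNA-seq in the mouse uterus. The study compared uteri with and without *Foxo1* at pseudopregnancy day (PPD) 4.5, around the time when the uterus is receptive to an embryo. Control *Foxo1f/f* females carried floxed *Foxo1* alleles and no Cre, and *Foxo1d/d* females carried PgrCre/+ together with *Foxo1f/f*. All were C57BL/6J, 8 weeks old, and had been mated with vasectomized males. RNA of 2 females was pooled for each library, with 3 libraries per genotype and 6 in all.

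Several features limit the model. The floxed part is the second coding exon of *Foxo1*, so reads from the rest of the gene can remain after recombination. Cre is expressed wherever *Pgr* is active. Within the uterus that covers epithelium and stroma from early life, and outside it the mammary gland, the follicles of the ovary (granulosa cells) and the pituitary are also targeted. Since the controls carry no Cre, an effect of the PgrCre allele cannot be told apart from the loss of *Foxo1*. Because RNA was taken from whole uteri, fewer cells of a type and less RNA per cell cannot be told apart either.

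For each gene, raw reads were averaged over the 3 libraries of a genotype. Libraries averaged 26125014 reads on genes in the controls and 27257963 in *Foxo1d/d*. Genotypes were compared by the log2 ratio of these averages, *Foxo1d/d* over *Foxo1f/f*, after adding 1 read and scaling by the summed reads of each genotype, so that negative ratios mean lower in *Foxo1d/d*. Values of single libraries were not analysed here, so no ratio has a spread between libraries, a test or a replicate check. Ratios of the members, and of other genes where stated, are given with a 95% exact binomial interval from the summed counts, which covers counting error only and leaves out the added read. A gene was called higher or lower when it lay past 1.5-fold, a log2 ratio over 0.58 or under -0.58, with at least 10 reads per library on average over both genotypes.

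*Foxo1*, the deleted gene, averaged 3941 reads per control library and 1456 per *Foxo1d/d* library. The log2 ratio was -1.50 (95% interval -1.55 to -1.45), so that 0.354 times the control level remained. The direction was that of the labels. The gene count covers all exons and not the floxed one alone.

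IGF1 and IGF2 are secreted growth factors that signal through the tyrosine kinase receptor IGF1R. IGF2R, also the cation-independent mannose 6-phosphate receptor, takes up IGF2 and carries it to the lysosome without growth signaling, and the binding proteins hold the ligands in tissue fluids and set how much reaches the receptors. In the rodent uterus, IGF1 from the stroma is a known mediator of estrogen-driven epithelial growth, and signaling from IGF1R through PI3K and AKT keeps FOXO1 out of the nucleus.

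Of the 10 IGF genes, 3 lay past 1.5-fold, against 8.94% of the 15696 genes that reached that minimum. *Igfbp5* was higher in *Foxo1d/d*, so that 1 of 10 was called higher where the background was 5.43%. *Igfbp3* and *Igf1r* were lower, 2 of 10 where the background was 3.51%. With 10 genes, a single call already exceeds the background share, so the count of 1 higher says nothing about the family. The other 7 were within 1.5-fold. The median log2 ratio of the 10 genes was -0.06, beside 0.02 for all genes at the minimum, and the family had no common direction, with 7 ratios below 0 and 3 above. The median absolute log2 ratio was 0.33, beside 0.14 for all genes at the minimum. The counting interval lay under 0 for 5 members, over 0 for 3, and held 0 for *Igf2* and *Igfbp7*. This tally depends on the scaling, since centring on the median gene moves each ratio by -0.025. That exceeds the distance from 0 of the upper limits of *Igf2* and *Igfbp7* (0.012) and the lower limit of *Igfbp2* (0.020). Together the 10 genes took 4205 CPM (counts per 1000000 counts on genes) in the controls and 3502 CPM in *Foxo1d/d*.

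**Figure D1:**
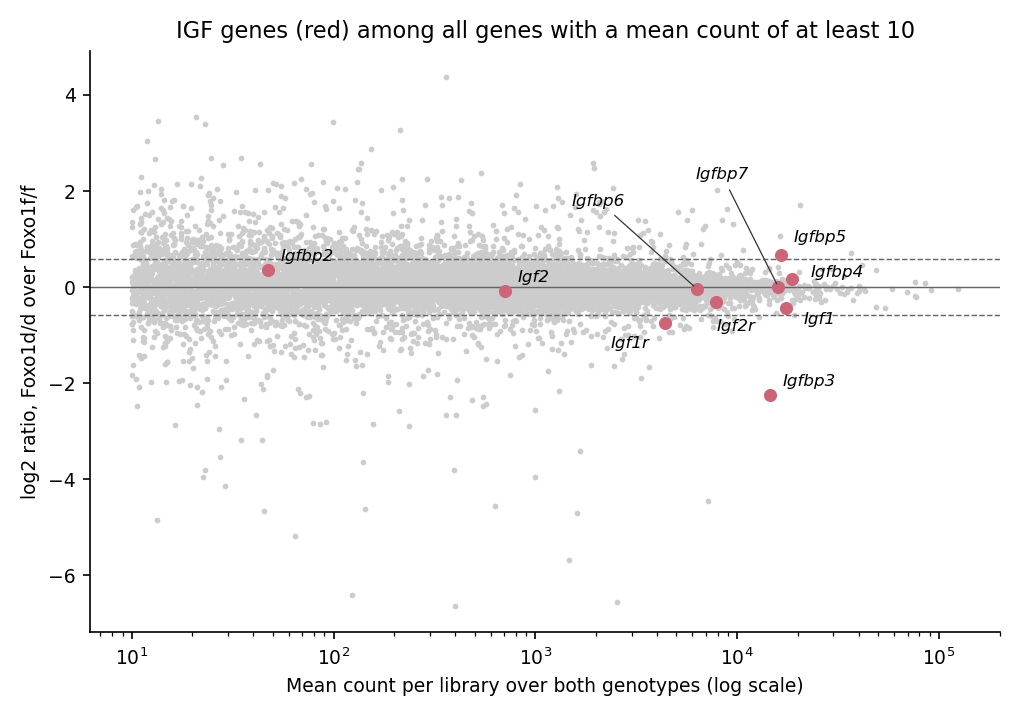
Log2 ratio between genotypes (*Foxo1d/d* to control) against the average reads per library over both genotypes (log scale). Each grey point is a gene that averages at least 10 reads, red points are the 10 IGF genes, and dashed lines mark 1.5-fold. *Igfbp3*, at -2.24, lies farther from 0 than each gene at least as abundant, while *Igfbp7* lies on the line of no difference.

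*Igf1*, the main uterine ligand, averaged 19765 reads per control library and 15326 per *Foxo1d/d* library. *Foxo1d/d* was the lower of the genotypes, at -0.43 on the log2 scale (95% interval -0.45 to -0.41), a 1.35-fold difference that did not reach the call. Among the 85 other genes at least as abundant as *Igf1*, 5 had a larger absolute ratio. *Igf2*, the fetal-type growth factor expressed from an imprinted locus, averaged 708 and 701 reads. The log2 ratio of *Igf2* was -0.08 with an interval of -0.16 to 0.01, so no difference was detectable at this depth and with this scaling.

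Levels of different genes were compared as CPM per kilobase of the longest coding transcript. On that scale *Igf1* stood at 107 in controls and 79.7 in *Foxo1d/d*, and *Igf2* at 5.74 and 5.44. *Igf1* made up 94.9% of the ligand RNA in *Foxo1f/f* and 93.6% in *Foxo1d/d*, so the ligand pool was nearly all *Igf1* in both. The ratio of *Igf1* to *Igf2* on this scale was 18.7 in controls and 14.7 in *Foxo1d/d*. Per kilobase of coding sequence it was 32.3 in controls and 25.3 in *Foxo1d/d*. The coding transcripts of *Igf1* run from 510 to 7052 bases, so its level relative to other genes depends on the length used. Per kilobase of the shortest one it was 1483 in controls and 1102 in *Foxo1d/d*. The ratio between genotypes of a single gene does not involve its length.

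*Igf1r*, the signaling receptor, lies on the plus strand at chr7:67952827-68233668 (GRCm38) and averaged 5393 reads per control library and 3340 per *Foxo1d/d* library. It was 1.69-fold lower in *Foxo1d/d*, or -0.75 on the log2 scale (95% interval -0.79 to -0.72). Of the 1287 other genes at least as abundant, 27 had a larger absolute ratio. *Igf2r*, the clearance receptor, averaged 8539 and 7196 reads, at a log2 ratio of -0.31 (95% interval -0.33 to -0.28). Both receptors thus had ratios below 0, and only *Igf1r* was called lower.

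In CPM per kilobase, *Igf1r* stood at 18.1 in controls and 10.7 in *Foxo1d/d*, and *Igf2r* at 36.8 and 29.7. The level of *Igf2r* was thus 2.03 times that of *Igf1r* in *Foxo1f/f* and 2.77 times in *Foxo1d/d*. Per kilobase of coding sequence the ratios were 0.873 and 1.19, so which receptor was the more abundant in controls depends on the length. *Insr*, the insulin receptor, which forms hybrid receptors with IGF1R, had a log2 ratio of -0.30, and its level was 1.19 times that of *Igf1r* in *Foxo1f/f* and 1.63 times in *Foxo1d/d*, or 0.974 and 1.33 times per kilobase of coding sequence. Per kilobase of the shortest coding transcript, which is far shorter for *Insr*, it was 16.6 and 22.7 times. The lengths cancel when such a ratio is compared between genotypes, and in *Foxo1d/d* it was 1.36 times the control value for *Igf2r* and 1.37 times for *Insr*.

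The 5′ part of *Igf2r* lies in a stretch of 28354 bases that is also covered by *Airn*, the noncoding antisense RNA of the imprinted locus. Use of strand in counting is not given in the sources used here, so reads of the 2 genes cannot be told apart there. *Airn* averaged 718 and 632 reads (log2 ratio -0.24, 95% interval -0.34 to -0.16). The same holds for *Igf2* and its antisense gene *Igf2as*, which held 15 counts over the *Foxo1f/f* libraries and 11 over the *Foxo1d/d* libraries, far fewer than the 2123 and 2102 of *Igf2*.

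**Figure D2:**
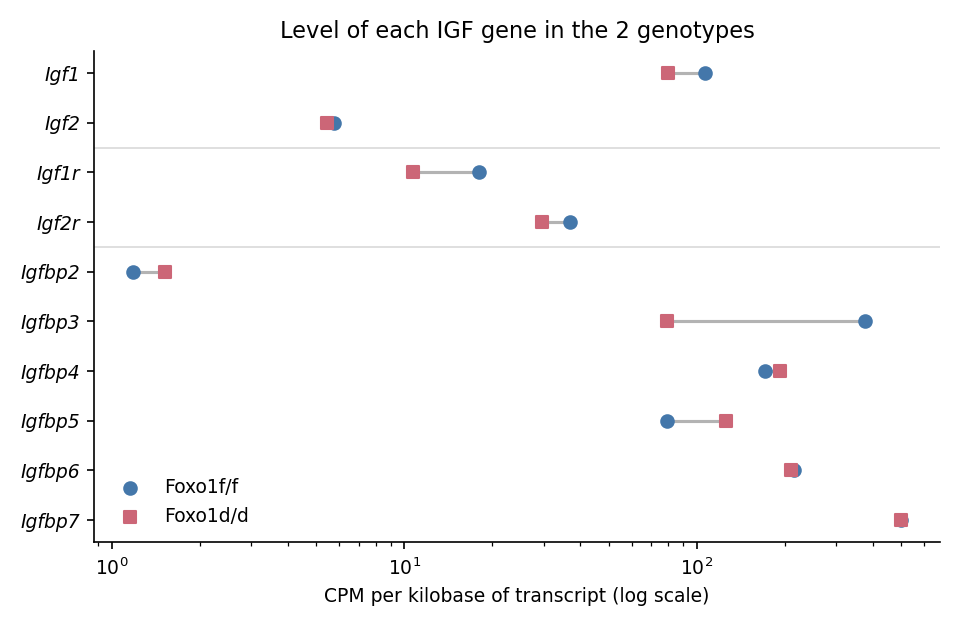
Level of each IGF gene in *Foxo1f/f* (blue circles) and *Foxo1d/d* (red squares) as CPM per kilobase of the longest coding transcript (log scale), from the mean counts of 3 libraries per genotype. Grey lines separate ligands, receptors and binding proteins, and no error is drawn because single libraries were not used. The widest gap is that of *Igfbp3*, from 376 to 79.6.

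*Igfbp3*, the main IGF carrier of the circulation and also a local binding protein, differed most among the members. It averaged 23774 reads per control library and 5250 per *Foxo1d/d* library, so the controls were the higher of the genotypes. The level was 4.72-fold lower in *Foxo1d/d*, or -2.24 on the log2 scale (95% interval -2.27 to -2.21). Of the 15696 genes, 43 had a lower ratio. Among the 141 other genes at least as abundant as *Igfbp3*, 0 had a larger absolute ratio.

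*Igfbp3* is on the minus strand at chr11:7206086-7213923 (GRCm38) and has 5 exons in its longest transcript. *Igfbp1*, the binding protein best known as a marker of human decidual stromal cells, is its neighbor on the plus strand at chr11:7197782-7202546, and the 3′ ends of the pair face each other across 3539 bases. *Igfbp1* averaged 7 reads per control library and had a single read over all *Foxo1d/d* libraries, under the minimum for a call. Its log2 ratio was -2.65, with a wide interval of -9.82 to -1.82. *Tns3*, the next gene on the other side of *Igfbp3*, lies 1217728 bases away and had a log2 ratio of 0.14. *Gm11985*, beyond *Igfbp1*, averaged 0.333 and 1 reads, too few for a call.

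The promoters of this pair are shown because both genes had ratios below 0, that of *Igfbp1* on counts too low for a call, and because *Foxo1* encodes a forkhead transcription factor. The sequences are the 250 bases before the RefSeq start sites (GRCm38.p6), written 5′ to 3′ on the strand of the gene, chr11:7213924-7214173 on the minus strand for *Igfbp3* and chr11:7197537-7197786 on the plus strand for *Igfbp1*. Capitals mark a match to CAAAACA, an insulin response type motif.
Igfbp3: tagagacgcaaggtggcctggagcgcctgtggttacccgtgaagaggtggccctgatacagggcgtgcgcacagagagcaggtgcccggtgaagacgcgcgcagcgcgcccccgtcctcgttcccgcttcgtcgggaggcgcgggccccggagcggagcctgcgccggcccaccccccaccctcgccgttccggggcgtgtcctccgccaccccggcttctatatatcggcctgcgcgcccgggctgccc
Igfbp1: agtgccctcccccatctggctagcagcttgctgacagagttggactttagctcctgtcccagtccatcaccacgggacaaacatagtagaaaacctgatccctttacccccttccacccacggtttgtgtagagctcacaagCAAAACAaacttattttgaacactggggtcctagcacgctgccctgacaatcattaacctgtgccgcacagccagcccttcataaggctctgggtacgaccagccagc

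Both strands of these windows were searched for GTAAACA, a forkhead-type motif, and for CAAAACA, and the motifs share their last 5 letters. *Igfbp1* held a CAAAACA that starts 108 bases before the start site, and *Igfbp3* held neither motif. All 10 members were matched by symbol to 14 promoters, since *Igf2* and *Igfbp2* have more than 1, and 0 of the 14 held either motif. Among 32851 promoters of the same length, with chromosome 18 left out, 3.17% held GTAAACA, 5.56% held CAAAACA and 8.51% held either. These counts concern the letters in the 250 bases alone. The members' promoters had a median of 66.6% G and C, beside 52.4% for all promoters. That of *Igf1r* was at 77.6%, *Igfbp7* at 74.0% and *Igfbp3* at 73.2%, while *Igf1* was at 52.8%.

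*Igfbp5*, a matrix-bound binding protein prominent in remodeling tissues, was the member called higher. It averaged 12451 reads per control library and 20709 per *Foxo1d/d* library, a 1.59-fold difference, or 0.67 on the log2 scale (95% interval 0.65 to 0.69). Among the 96 other genes at least as abundant, 2 had a larger absolute ratio. The ratio lay close to the call at 0.58. *Igfbp5* lies on the minus strand at chr1:72857932-72874884 (GRCm38), tail to tail with *Igfbp2* on the plus strand at chr1:72824503-72852474, and 5457 bases separate them.

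*Igfbp2*, which binds both ligands, was the least abundant member, averaging 40.3 and 54.3 reads. Its log2 ratio of 0.36 had an interval of 0.02 to 0.72 and did not reach the call. Both genes of this pair thus had ratios above 0, and both genes of the *Igfbp3* and *Igfbp1* pair had ratios below 0. *Igfbp1* was under the minimum for a call, and centring on the median gene would take the lower limit of *Igfbp2* below 0. No pattern of the loci can therefore be read from these directions. The genes outside the *Igfbp2* and *Igfbp5* pair, *Rpl37a* and *Tnp1*, had log2 ratios of -0.02 and -0.06, the latter from an average of 0.333 reads in both genotypes.

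The remaining binding proteins were close in the genotypes. *Igfbp4*, whose cleavage by the protease PAPP-A frees IGF, averaged 17203 and 20161 reads, at a log2 ratio of 0.17 (95% interval 0.15 to 0.18). *Igfbp6*, which prefers IGF2, averaged 6266 and 6376 reads, at a log2 ratio of -0.04 (95% interval -0.07 to -0.01). *Igfbp7*, a low-affinity IGF binder that is also a vascular matrix protein, averaged 15727 and 16337 reads, at a log2 ratio of -0.01 (95% interval -0.02 to 0.01). The 3′ end of *Igfbp7* shares a short stretch with that of *Polr2b*, which was at 0.08. Of the 110 other genes at least as abundant, 108 had a larger absolute ratio than *Igfbp7*.

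Summed over *Igfbp2* to *Igfbp7*, binding protein RNA stood at 1346 CPM per kilobase in controls and 1110 in *Foxo1d/d*, 0.825 times the control level. *Igfbp3* made up 27.9% of the sum in *Foxo1f/f* and 7.17% in *Foxo1d/d*. The share of *Igfbp5* was 5.90% in controls and 11.4% in *Foxo1d/d*, and that of *Igfbp7*, the most abundant binding protein in both on this scale, was 37.3% and 45.0%. The shares depend on the length used. For *Igfbp5* they were 16.9% and 30.2% per kilobase of coding sequence, and 2.92% and 5.06% per kilobase of the shortest coding transcript. For *Igfbp3* they were 30.0% and 7.11% with the former, and 19.6% and 4.51% with the latter. For *Igfbp7* they were 18.5% and 20.6% with the former, and 19.9% and 21.5% with the latter. Without *Igfbp3*, the other 5 together stood at 970 in controls and 1031 in *Foxo1d/d*. This sum without *Igfbp3* was taken after its values were seen.

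**Figure D3:**
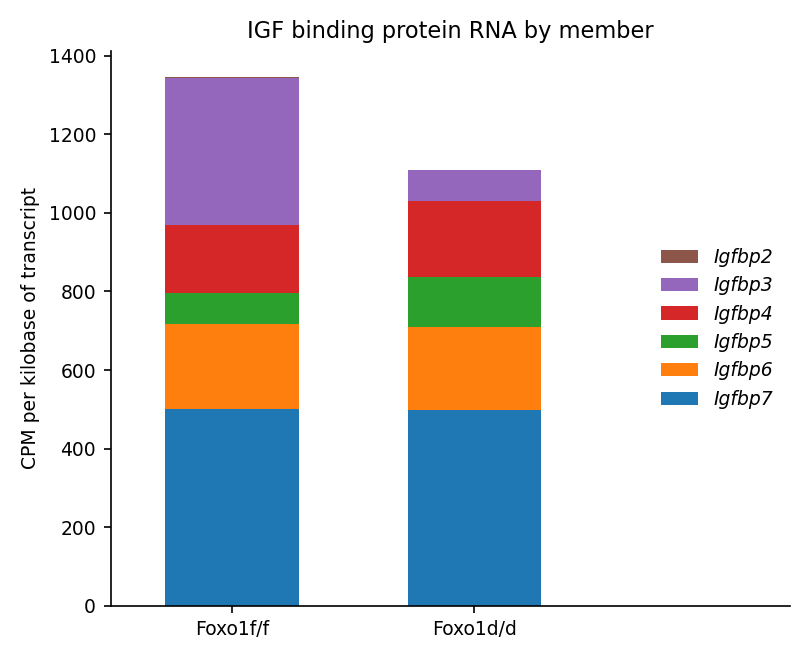
Binding protein RNA in each genotype, as CPM per kilobase of the longest coding transcript, stacked by gene from the mean counts of 3 libraries. The *Igfbp3* segment is 376 in controls and 79.6 in *Foxo1d/d*, the *Igfbp5* segment 79.4 and 126, and *Igfbp2*, at 1.18 and 1.53, is too thin to see.

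In the order of levels, *Igfbp3* was second of the 10 members in *Foxo1f/f* and sixth in *Foxo1d/d*, where its level was 0.998 times that of *Igf1*. *Igfbp5* went the other way, from place 6 to place 4, and passed *Igf1* and *Igfbp3*. *Igfbp7* was first, and *Igf2r*, *Igf1r*, *Igf2* and *Igfbp2* held the last places in both genotypes. The order depends on the length, and so does the near equality of *Igfbp3* and *Igf1* in *Foxo1d/d*. Per kilobase of coding sequence *Igfbp3* and *Igf1* stood at 220 and 1136 there, and per kilobase of the shortest coding transcript at 113 and 1102. Per kilobase of coding sequence *Igf1* was first in both genotypes, *Igfbp7* at place 4, *Igfbp3* at place 2 in controls and place 6 in *Foxo1d/d*, and *Igfbp5* at place 5 and place 3. Per kilobase of the shortest coding transcript *Igfbp7* was at place 3, *Igfbp3* went from place 4 to place 6 and *Igfbp5* from place 6 to place 5, and *Igfbp4* was the most abundant binding protein in both genotypes. Binding protein RNA was 11.9 times ligand RNA in *Foxo1f/f* and 13.0 times in *Foxo1d/d*. Per kilobase of coding sequence these ratios were 2.20 and 2.62, so their size depends on the length while *Foxo1d/d* was the higher with either.

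Other genes of the pathway were taken from 8 lists, and 42 of their 48 genes reached the minimum. Past 1.5-fold were 10 of the 42, or 23.8%, beside 8.94% of all genes at the minimum. Of these 6 were higher and 4 lower, and the median log2 ratio was 0.04. The lists were chosen with earlier results of these data known, so their share past 1.5-fold says nothing about the pathway beyond the genes listed. The proteases of binding proteins and their inhibitors held 5 of the 10. *Adam12*, a metalloprotease that cleaves IGFBP3 and IGFBP5, averaged 2262 and 4232 reads, at a log2 ratio of 0.84. *Htra1*, a secreted serine protease with an IGFBP-like domain, was higher at 0.74 and its relative *Htra3* lower at -0.63. *Adam28*, which cleaves IGFBP3, was lower at -1.24. *Stc2*, which encodes an inhibitor of PAPP-A, was higher at 0.64, while *Pappa* itself stood at -0.36 within 1.5-fold. In this list, then, 3 genes were higher, 2 lower and 3 within 1.5-fold, with no common direction.

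**Figure D4:**
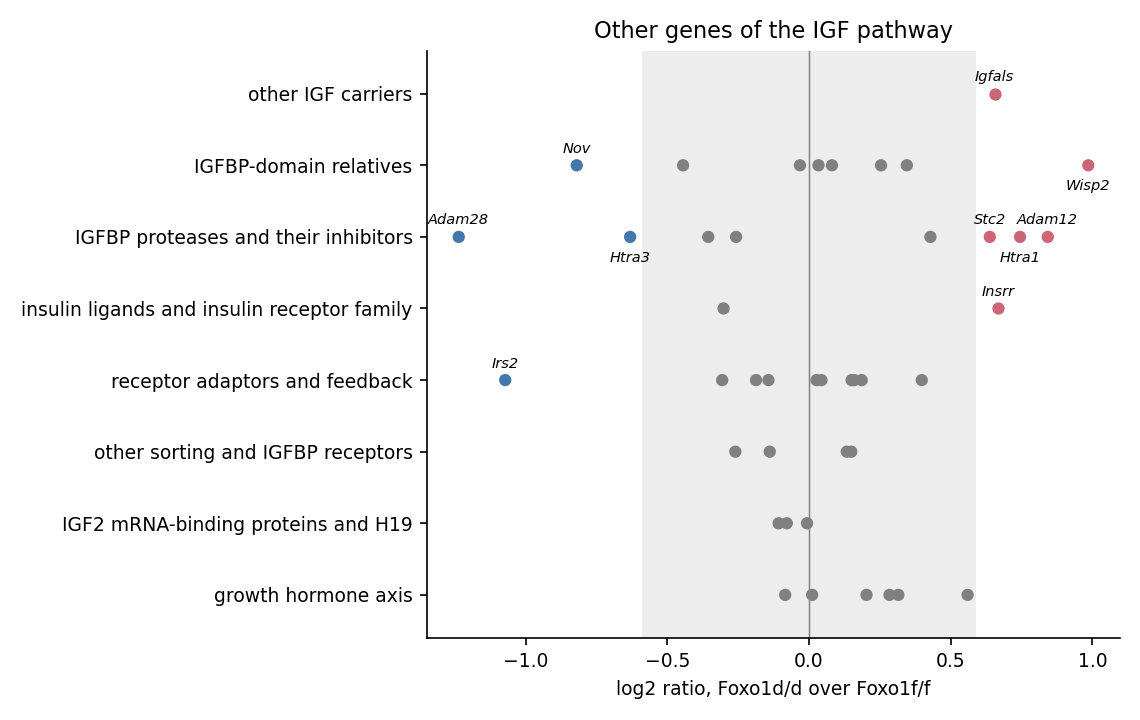
Log2 ratio between genotypes (*Foxo1d/d* to control) for each gene that averages at least 10 reads in 8 lists of other IGF pathway genes. Grey shading spans the range within 1.5-fold, genes beyond it are named, and the list of proteases and inhibitors has the most, 5.

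Among carriers and relatives of the binding proteins, *Igfals*, which encodes the acid-labile subunit that joins IGFBP3 or IGFBP5 and IGF in serum, averaged 8.33 and 14.3 reads. Its log2 ratio of 0.65 passed 1.5-fold, but the interval of -0.02 to 1.49 held 0. *Wisp2* was higher at 0.99 (95% interval 0.56 to 1.5) and *Nov* lower at -0.82, both matricellular proteins with an IGFBP-like domain. *Insrr*, an orphan receptor of the insulin receptor family, was higher at 0.67 (95% interval 0.39 to 0.97). *Irs2*, an adaptor that links IGF1R and the insulin receptor to PI3K, averaged 403 and 199 reads, at a log2 ratio of -1.07 (95% interval -1.22 to -0.93), and it was the 1 gene of 10 past 1.5-fold among adaptors and feedback genes. *Irs1*, its close relative, was at 0.40.

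The other 3 lists held 0 genes past 1.5-fold. Their most abundant genes were *Lrp1*, an endocytic receptor that binds IGFBP3, at -0.14, *H19*, the imprinted noncoding gene beside *Igf2*, at -0.08, and *Jak2*, the kinase of the growth hormone receptor, at 0.28. Near *Igfbp4*, *Gjd3* and *Ccr7* were higher at 0.76 and 1.45 on averages of at most 22.7 reads.

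Markers of the cell types of the uterus were read beside these values. Stromal markers, among which *Dcn* and *Pdgfra* mark the fibroblasts, held 0 of 7 past 1.5-fold. Of the 7, 6 had ratios below 0, and the median was -0.11. Their summed levels were 6687 and 6500 CPM in controls and *Foxo1d/d*, led by *Col1a1*, the 1 with a ratio above 0 (0.11). All 6 smooth muscle markers had ratios below 0, with a median of -0.30 and sums of 6561 and 5287 CPM, led by *Myh11*. All 6 endothelial markers were below 0 too, with a median of -0.22 and sums of 1351 and 1164 CPM, led by *Pecam1*. Among the members, the ratios below 0 included those of *Igf1* (-0.43), *Igf2r* (-0.31), *Igf1r* (-0.75) and *Igfbp3* (-2.24). The part of these cell types in the ratios of *Igf1*, *Igf2r*, *Igf1r* and *Igfbp3* was not tested.

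Epithelial markers summed to 681 and 817 CPM, led by *Cdh1*, with *Krt19* higher at 1.22 among 6. Of the 4 gland markers measured, *Foxa2*, the gland transcription factor, was at 0.04, while the secreted products *Spink3*, *Prss28* and *Prss29* were lower at -4.70, -6.56 and -4.46. The gland sums were 849 and 41.5 CPM, led by *Prss29*, and reads of *Prss28* and *Prss29* can be shared between these paralogs. All 6 adipocyte markers were higher in *Foxo1d/d*, with a median of 1.96 and sums of 11.04 and 40.53 CPM, led by *Fabp4*. Leukocyte markers summed to 292 and 356 CPM, led by *Ptprc*, and *Cd3e* was higher at 1.09 among 6. Decidual markers summed to 23.07 and 41.76 CPM, led by *Alpl*, which was higher at 1.27. The 3 that reached the minimum had ratios above 0, with a median of 0.55, and *Prl8a2* and *Prl3c1* had no count. Ovary and oviduct markers summed to 145 and 157 CPM, led by *Ovgp1*, with 0 past 1.5-fold. The part of gland, fat, immune and decidual cells in the ratios of *Igfbp3*, *Igfbp5* and *Igf1r* was not tested.

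**Figure D5:**
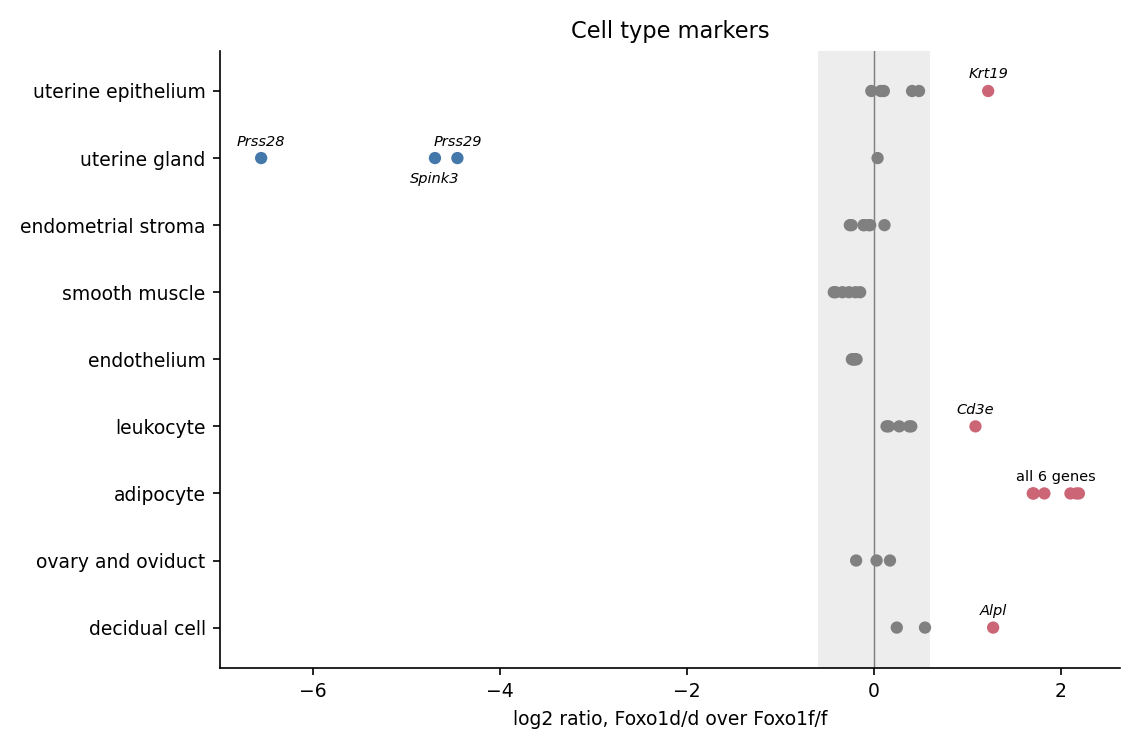
Log2 ratio between genotypes (*Foxo1d/d* to control) for cell type markers that average at least 10 reads. Grey shading spans the range within 1.5-fold; the 6 adipocyte markers lie above it, 3 gland products lie far below it, and markers of stroma, smooth muscle and endothelium lie within it.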

How the data were processed

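RNA of 6 libraries was sequenced as paired-end reads from poly(A)-selected TruSeq libraries. The authors trimmed 11 bases from the 5′ ends, then used STAR for mapping, Picard to drop duplicates, HTSeq for counting on RefSeq genes and edgeR for the comparison; versions and use of strand are not given in the sources used here. The study's methods name mm10, while the submitters' processing notes name mm9; the table holds no coordinates. The deposited values used here are mean raw counts per genotype, each within 1e-06 of a whole number after multiplication by 3. Summed counts were 78375043 over *Foxo1f/f* and 81773890 over *Foxo1d/d* libraries. The authors' deposited fold change, average log2 CPM, p-value and FDR were not used.

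Ratios were computed in Python 3.11.15 with pandas 2.3.3, and exact binomial (Clopper-Pearson) intervals with scipy 1.17.1. The steps were checked on simulated data. Transcript lengths and positions came from GENCODE M21 and promoters from RefSeq, both on GRCm38. Genes named are *Foxo1*, all members, their neighbors, listed genes past 1.5-fold and, in lists without one, the most abundant; *Igfbp1*, *Pappa*, *Insr*, *Irs1*, *Airn* and *Igf2as* were named after their values were seen. Markers came from lists of each cell type, and results for 2 genes are not reported here. Members and lists were chosen with earlier results of these data known. A planned comparison of proteins was not run. Alternatives were other pseudocounts, scalings, fold limits, count minimums and lengths.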

Additional observations from a re-analysis of the deposited data

How the results depend on the processing

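Ratios of 24 named genes were recomputed with a pseudocount of 0.1, centred on the median gene, scaled by the upper quartile, and with totals without the 10 most abundant genes. Of the 96 values, 0 changed sign or side of the 1.5-fold call, 10 left the counting interval, and the largest shift was 0.06 on the log2 scale. The median of the members stayed within -0.08 and -0.06 under these and under the other count minimums. Of the 10 members, 1 lay past the call at 2-fold and 5 past the lower fold limit tried, which was under 1.5-fold. Of the 15696 genes at the count minimum, 533 and 3380 lay past these limits. Without a count minimum 2723 genes lay past 1.5-fold, and 687 with a minimum of 100; these counts differ by construction. The summed binding protein level in *Foxo1d/d* was 0.921 times that of *Foxo1f/f* per kilobase of the shortest coding transcript, 0.892 per kilobase of coding sequence and 0.724 without *Igfbp7*. Without *Igfbp3*, an alternative chosen after seeing the data, it was 1.06, so its direction turned. Levels of *Igf2r* and *Insr* over *Igf1r* turned in controls, to 0.873 and 0.974, per kilobase of coding sequence; lengths for these ratios, shares and places were also chosen after seeing the data. No paired analysis was possible because the table gives 1 mean per genotype and no replicate numbers, and for the same reason no library could be left out. Depth limits *Igfbp1*, *Igfbp2* and *Igfals*, whose counting intervals are wide.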
